A study of Mus musculus with 35 samples.

Results

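Primary tumors of KC-shSmad4 cells labelled Smad4OFF were compared between day 14 and day 7. Their members are the 2 libraries of the day 14 group and the 3 libraries of the day 7 group, found by the organ, label and day in the column names, and they make up 5 of the 35 RNA-seq libraries of the series. The series asks how restoring *Smad4* changes pancreatic ductal adenocarcinoma (PDAC) cells in the pancreas, liver and lungs. KC-shSmad4 cells carry Ptf1a-Cre, the RIK allele (rtTA3 and the mKate2 reporter) and a doxycycline (Dox)-inducible shRNA against *Smad4* in the CHC cassette. Ptf1a-Cre acts in the pancreatic lineage, so the reporter marks cells that descend from it.

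All 5 tumors grew after cells derived from such tumors were injected into the tail of the pancreas. The hosts were female athymic nude (Foxn1nu) mice that ate Dox chow, and the study describes its cell lines as derived from male mice. Nude mice lack a thymus and so most T cells, but keep macrophages, neutrophils and natural killer cells. By the study's description, mice of the Smad4OFF group were kept on Dox and days are counted from its withdrawal from the Smad4ON group, 4 weeks after injection. The *Smad4* levels given below go against this, so which of these libraries came from mice on Dox is uncertain. By the days on the labels, a day 14 tumor had grown 1 week longer than a day 7 tumor. Tumor cells were sorted by mKate2, and the labels do not say which cell line or which *Smad4* shRNA each library holds. Mouse numbers in the labels run from 1 within each group and recur between the days, and P values measure the spread between these libraries.

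SMAD4 is the shared partner of the SMAD proteins that TGFβ and BMP receptors activate, and with them it turns genes on or off in the nucleus. In pancreatic epithelium TGFβ signaling can stop the cell cycle, and in carcinoma cells it can also drive matrix production. In a growing tumor, cells far from vessels turn on genes of the hypoxia response, which are bound by the HIF factors, and the rate of division follows cyclins and kinases that rise before mitosis.

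*Smad4* mRNA went against the labels, and no difference between the days was detected. In the 3 libraries labelled Smad4OFF on day 7 it stood at 107, 110 and 92.3 CPM (counts of the gene per 1e+06 counts of the library). On day 14 the values were 96.1 and 106 CPM. The 5 primary tumor libraries labelled Smad4ON held 19.9 to 23.2 CPM, below every library labelled Smad4OFF, so the label names below are the deposited ones and say nothing of *Smad4* status. Between days the log2 fold change of *Smad4* was 0.02 ± 0.11 (SE; adjusted P = 0.944, edgeR's quasi-likelihood test, Benjamini-Hochberg adjusted), and the libraries of both days overlapped.

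Depth moved with the day. The day 7 libraries held 16557417, 17906083 and 16967152 counts, and the day 14 libraries held 28557488 and 32195795, so the deeper libraries were those of day 14. With all 5 thinned to the smallest, the calls described below numbered 84 higher and 30 lower, as against 87 and 31. Of the 87 and 31, the thinned libraries kept 78 and 24. The floor of 3 counts lay between 0.0932 and 0.181 CPM and covers counting error only. Pearson correlations of log2 CPM were 0.978 to 0.985 within day 7, 0.993 within day 14 and 0.974 to 0.983 between the days. Carcinoma and ductal markers such as *Krt19* and *Krt8* summed to 2953 to 4980 CPM in the 5 libraries. The 14 fibroblast markers summed to more, at 17656, 12023 and 16695 CPM on day 7 and 12396 and 11959 CPM on day 14. Whether these fibroblast markers came from fibroblasts or from carcinoma cells was not tested. Lymphocyte markers summed to at most 2.96 CPM, and the 4 Y-linked genes were at 0 counts in each of the 5 libraries.

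Acinar cell enzymes overlapped between days. The 23 acinar genes in the file summed to 4995, 5011 and 3107 CPM on day 7 and to 1470 and 5234 CPM on day 14, so mouse 1 of day 14 had the lowest sum and mouse 2 the highest. Of the 22 acinar genes tested, 0 were called and all 22 had overlapping libraries. Macrophage and monocyte markers summed to 184 to 275 CPM on day 7 and to 209 and 344 CPM on day 14, with 0 of 17 called. In such bulk libraries fewer cells of a type and less RNA per cell cannot be told apart.

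Between day 7 and day 14, called genes of the hypoxia response rose and called genes of mitosis fell. Genes count as called where they changed over 2-fold with an adjusted P under 0.05. By this rule 87 of 14269 genes were higher on day 14 (0.61%) and 31 were lower (0.217%). Without the fold threshold 256 were higher (1.79%) and 241 lower (1.69%), and the median log2 fold change of all genes tested was -0.01. The libraries of the called genes overlapped between days in 0 cases. By contrast, with no regard to the test, day 14 lay above day 7 for 19.3% of all genes tested and below it for 27.5%.

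These calls rest on few libraries. The count fell to 0 in both directions without mouse 3 of day 7 or without either day 14 mouse, and rose to 168 higher and 52 lower without mouse 1 of day 7 and to 219 and 102 without mouse 2. In a single fit of all 12 groups of the series 0 genes were called (lowest adjusted P = 0.0923), whereas DESeq2 called 160 higher and 69 lower. The directions of the gene groups below are given for all members, beside the number called. The members of a list were measured in the same 5 libraries, so their number does not add replicates. The lists were also chosen with earlier results of these data known.

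The hypoxia and glycolysis list had 5 called genes. *Adm* encodes adrenomedullin, a vasodilator peptide induced by low oxygen, and stood at 3.56, 3.24 and 2.83 CPM on day 7 and at 14.1 and 13.6 CPM on day 14. *Ankrd37*, a HIF target, stood at 7.67, 8.99 and 6.78 CPM and then at 25.4 and 30.8 CPM. *Slc2a1*, the glucose transporter GLUT1, was measured at 193, 174 and 178 CPM and then at 344 and 384 CPM. For all 3 genes both day 14 libraries lay above each day 7 library. The log2 fold changes were 2.15 ± 0.18, 1.89 ± 0.17 and 1.05 ± 0.10 (SE), with adjusted P values of 0.0163, 0.019 and 0.0205 (edgeR's quasi-likelihood test, Benjamini-Hochberg adjusted).

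*Bnip3*, a mitochondrial protein that promotes mitophagy, and *Ndrg1*, a hypoxia-induced stress protein, were the other called members. *Bnip3* stood at 26.9, 27.7 and 18.3 CPM on day 7 and at 53.9 and 55.3 CPM on day 14. *Ndrg1* stood at 268, 171 and 176 CPM on day 7 and at 409 and 519 CPM on day 14. Both had no overlap between days, and their log2 fold changes were 1.21 ± 0.17 and 1.23 ± 0.20 (SE).

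Of the 34 hypoxia and glycolysis genes on the list, all tested, 5 were called higher and 0 lower. The fold change was positive for 33, with a median log2 value of 0.54 against -0.01 for all genes. Day 14 lay above day 7 with no overlap in 28, as it did for 19.3% of all genes tested. At any fold, 11 had an adjusted P under 0.05. They included *Hk2*, hexokinase 2, at 121, 98.3 and 97.5 CPM and then 169 and 189 CPM, and *Vegfa*, the main growth factor of vessels, at 290, 228 and 251 CPM and then 409 and 460 CPM. *Tpi1*, *Pfkl*, *Gpi1* and *Pfkfb3*, all of glycolysis or its control, were the remaining 4. *Pfkfb3*, with a log2 fold change of 0.99, was called as well without mouse 1 or mouse 2 of day 7. *Car12* was the single member with a negative value (-0.39), and *Car9*, carbonic anhydrase 9, had no detectable change and overlapped between days (52.9 to 153 CPM on day 7, 113 and 100 CPM on day 14).

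Genes outside the list with ties to the same response were also among the called genes. *Hilpda*, a lipid droplet protein, stood at 55.1, 36.2 and 33.2 CPM on day 7 and at 139 and 136 CPM on day 14. *Pgf*, placental growth factor and a relative of *Vegfa*, stood at 7.85, 5.19 and 6.37 CPM and then at 21.5 and 29.5 CPM. Their log2 fold changes were 1.78 ± 0.20 and 2.02 ± 0.20 (SE), with adjusted P values of 0.0267 and 0.0212 (edgeR's quasi-likelihood test, Benjamini-Hochberg adjusted). *Eno2*, an enolase, was named after its values were seen and went from 4.29 to 7.48 CPM on day 7 to 15.0 and 15.6 CPM on day 14.

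**Figure D1:**
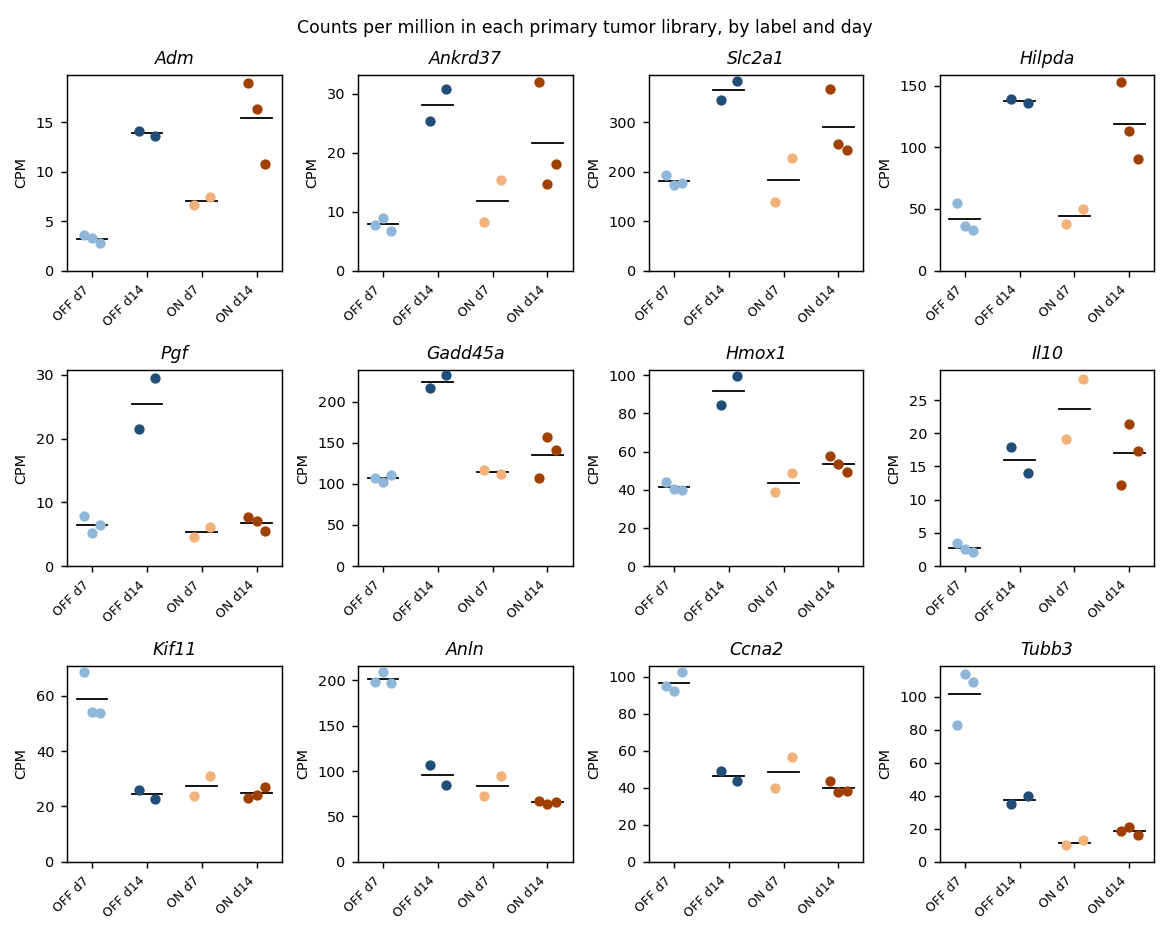
Level in CPM in each primary tumor library for 12 genes, with 1 point per library and a line at the group mean, for the groups labelled Smad4OFF and Smad4ON on day 7 and day 14. The 8 genes in the upper rows rose under the label Smad4OFF (*Adm* from 2.83 to 3.56 CPM to 13.6 and 14.1 CPM), and the 4 genes in the bottom row fell (*Kif11* from 53.7 to 68.6 CPM to 22.6 and 26.1 CPM).

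The promoters of the called hypoxia members are shown because these genes moved together and the HIF factors are known to bind the letters ACGTG. The sequences are the 250 bases before the start of the gene in RefSeq (GRCm38.p6), read on the strand of the gene, with ACGTG on either strand in capitals. A promoter was found in the table for 4 of the 5 called members, and 3 of these held the letters. *Slc2a1* lies on the plus strand (chr4:119108495-119108744), with the match beginning 36 bases before the start, *Bnip3* on the minus strand (chr7:138909507-138909756) and *Ankrd37* on the minus strand (chr8:45999851-46000100).
Slc2a1: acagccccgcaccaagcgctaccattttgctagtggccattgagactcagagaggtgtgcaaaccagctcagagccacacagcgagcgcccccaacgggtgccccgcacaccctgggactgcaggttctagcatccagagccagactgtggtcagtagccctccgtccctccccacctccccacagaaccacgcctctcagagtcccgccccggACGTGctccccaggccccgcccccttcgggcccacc
Bnip3: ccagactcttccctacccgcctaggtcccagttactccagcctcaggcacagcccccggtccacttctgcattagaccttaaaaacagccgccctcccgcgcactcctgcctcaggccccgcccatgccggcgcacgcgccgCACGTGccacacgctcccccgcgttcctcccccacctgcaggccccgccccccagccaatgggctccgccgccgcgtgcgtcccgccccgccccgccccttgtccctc
Ankrd37: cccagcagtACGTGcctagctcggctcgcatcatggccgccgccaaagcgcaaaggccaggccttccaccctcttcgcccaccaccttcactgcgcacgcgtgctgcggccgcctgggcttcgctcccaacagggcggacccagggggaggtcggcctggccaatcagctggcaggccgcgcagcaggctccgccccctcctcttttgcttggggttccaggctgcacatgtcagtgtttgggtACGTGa

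The match in *Bnip3* reads the same on both strands. The letters ACGTG were found in 50% of the 30 list members with a promoter, in 23.7% of the 59 genes called higher and in 21.2% of the 10552 genes tested that had one. The promoter of *Adm* did not hold them within these 250 bases, and neither did those of *Hilpda* and *Pgf* from outside the list. Other forms of the HIF site were not searched. A match is a description of the letters and not a measurement of binding.

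Of the mitotic genes 5 were called lower. *Kif11* encodes the motor that separates the spindle poles, and stood at 68.6, 53.9 and 53.7 CPM on day 7 and at 26.1 and 22.6 CPM on day 14. *Cenpf*, a kinetochore protein, stood at 62.6, 54.2 and 63.9 CPM and then at 30.3 and 25.4 CPM. *Anln*, the actin-binding protein anillin of the cleavage furrow, stood at 199, 209 and 197 CPM and then at 106 and 84.8 CPM. Both day 14 libraries lay below each day 7 library for all 3 genes. Their log2 fold changes were -1.22 ± 0.14, -1.07 ± 0.13 and -1.03 ± 0.13 (SE), with adjusted P values of 0.0253, 0.0253 and 0.0267 (edgeR's quasi-likelihood test, Benjamini-Hochberg adjusted).

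*Aurkb*, the kinase of the chromosomal passenger complex, and *Kif20b*, a kinesin of cytokinesis, completed the called members. *Aurkb* fell from 39.7, 38.3 and 46.8 CPM to 21.2 and 19.0 CPM. *Kif20b* fell from 28.3, 23.7 and 21.6 CPM to 12.7 and 9.75 CPM. These values too did not overlap between days.

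Of 52 G2/M-phase genes, all tested, 5 were called lower and 0 higher. All 52 fold changes were negative, from -1.22 to -0.23 on the log2 scale, with a median of -0.74. In 49 the day 14 libraries lay below day 7 with no overlap, as they did for 27.5% of all genes tested. At any fold, 21 had an adjusted P under 0.05. Among them were *Mki67*, which encodes the proliferation antigen Ki-67 (310, 264 and 288 CPM on day 7, 151 and 135 CPM on day 14), and *Top2a*, topoisomerase IIα (330, 319 and 327 CPM, then 176 and 150 CPM). The summed level of the list was 4313, 4041 and 4276 CPM on day 7 and 2821 and 2534 CPM on day 14. Leaving out each library in turn moved the median between -0.91 and -0.56, and all 52 values stayed negative each time.

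Further called genes of division were outside the list. *Ccna2*, cyclin A2, fell from 95.0, 92.4 and 103 CPM to 48.9 and 43.5 CPM. *Aspm*, a spindle pole protein, fell from 39.7, 30.9 and 35.2 CPM to 14.7 and 15.5 CPM. *Arhgap11a*, a RHOA regulator of cytokinesis, fell from 54.9, 52.2 and 49.7 CPM to 24.5 and 21.7 CPM and had the lowest adjusted P value of the genes that fell (0.0205; edgeR's quasi-likelihood test, Benjamini-Hochberg adjusted). *Ncapg*, a condensin subunit, and *Knl1*, a kinetochore scaffold, had log2 fold changes of -1.36 ± 0.16 and -1.37 ± 0.17 (SE).

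On the list of 42 S-phase genes 0 were called, 40 had a negative fold change and the median was -0.40 on the log2 scale. At any fold 3 had an adjusted P under 0.05. *Mcm4*, a subunit of the replicative helicase, went from 118, 113 and 102 CPM to 73.1 and 70.0 CPM. *Atad2* went from 57.9, 58.8 and 54.5 CPM to 35.3 and 32.7 CPM, and *Rrm2*, a ribonucleotide reductase subunit, from 90.7, 62.4 and 83.3 CPM to 44.3 and 44.2 CPM. *E2f7*, a repressor of the E2F target genes, was called lower as well (22.3, 18.1 and 19.9 CPM, then 9.87 and 5.59 CPM).

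**Figure D2:**
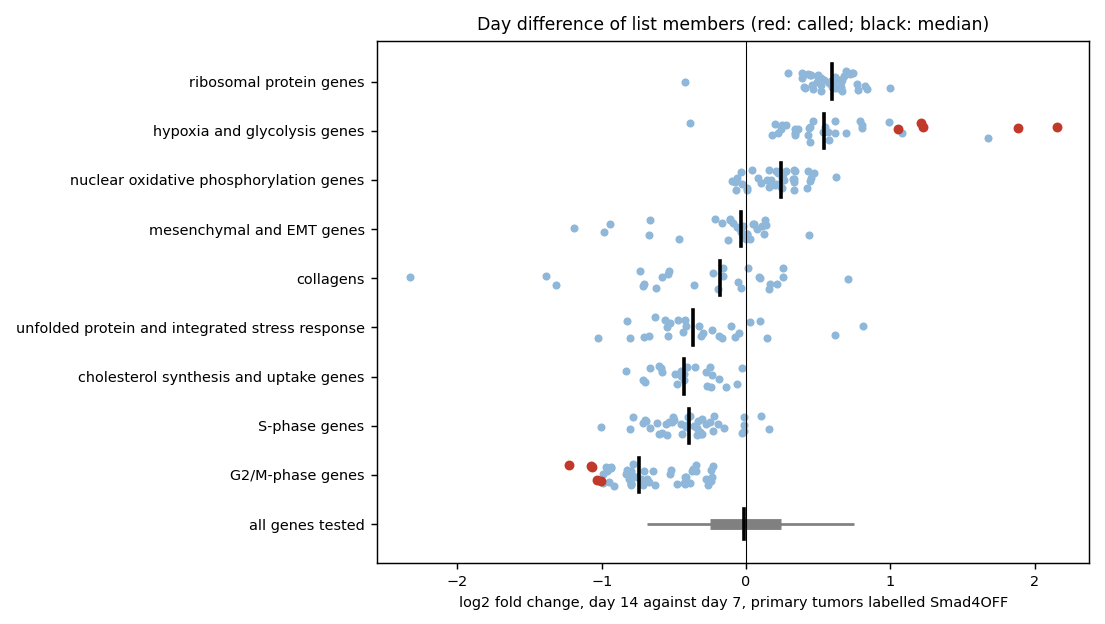
Log2 fold change between day 14 and day 7 under the label Smad4OFF for the members of 9 lists, with 1 point per tested gene, called genes in red and a black line at the median; for all genes tested the thin bar spans the percentiles 5 to 95 and the thick bar 25 to 75. All 52 G2/M-phase genes lie below 0, with a median of -0.74, and 33 of 34 hypoxia and glycolysis genes lie above it, with a median of 0.54.

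The promoters of 3 called genes of division are shown for the letters TTTGAA, the CHR element of genes that peak in G2 and M phase, in capitals on either strand. *Kif11* lies on the plus strand (chr19:37376132-37376381), *Ncapg* on the plus strand (chr5:45669675-45669924) and *Arhgap11a* on the minus strand (chr2:113848662-113848911), all in RefSeq's GRCm38.p6. They were chosen because they hold the letters.
Kif11: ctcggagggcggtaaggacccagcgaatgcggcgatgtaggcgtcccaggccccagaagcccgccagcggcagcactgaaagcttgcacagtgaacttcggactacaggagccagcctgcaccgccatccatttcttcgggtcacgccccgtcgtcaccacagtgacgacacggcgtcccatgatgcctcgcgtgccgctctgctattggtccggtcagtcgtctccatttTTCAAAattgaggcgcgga
Ncapg: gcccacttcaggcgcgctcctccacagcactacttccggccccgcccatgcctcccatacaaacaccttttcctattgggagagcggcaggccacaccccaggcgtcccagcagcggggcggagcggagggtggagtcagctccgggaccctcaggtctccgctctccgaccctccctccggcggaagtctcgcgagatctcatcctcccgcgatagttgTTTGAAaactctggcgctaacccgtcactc
Arhgap11a: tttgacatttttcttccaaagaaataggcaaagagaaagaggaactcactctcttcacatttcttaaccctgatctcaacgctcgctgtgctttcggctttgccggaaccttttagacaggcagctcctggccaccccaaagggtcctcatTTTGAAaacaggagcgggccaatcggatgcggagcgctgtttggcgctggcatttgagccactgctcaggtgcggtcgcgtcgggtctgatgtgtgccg

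The matches begin 19, 30 and 99 bases before the start. The letters TTTGAA were found in 41.3% of the 46 G2/M-phase genes with a promoter, in 33.3% of the 21 genes called lower and in 10.6% of the 10552 genes tested that had one. The letters CCAAT, which NF-Y binds and which can share a base with TTTGAA, were searched on both strands and were found in 76.1%, 66.7% and 36.2% of the same promoters. The promoters of *Aspm*, *Cenpf*, *Anln* and *Kif20b* did not hold TTTGAA in these 250 bases.

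In the TGFβ pathway few genes passed the test. Of its 28 ligands, receptors and SMADs 27 were tested, and 0 were called (median log2 fold change 0.06). *Tgfb2*, a TGFβ ligand, was the single member with an adjusted P under 0.05 at any fold, at 75.1, 71.1 and 62.8 CPM on day 7 and 105 and 101 CPM on day 14. *Tgfbr2*, the type II receptor, overlapped between days (330 to 455 CPM, then 417 and 367 CPM). *Smad7*, the inhibitory SMAD, overlapped as well, at 137, 115 and 153 CPM and then 125 and 145 CPM.

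Among 22 feedback and direct target genes of TGFβ and BMP, 1 was called, the decoy receptor *Bambi*. It stood at 3.68, 6.25 and 4.30 CPM on day 7 and at 13.3 and 11.6 CPM on day 14, a log2 fold change of 1.43 ± 0.26 (SE). *Id2* and *Id3*, inhibitors of helix-loop-helix factors, had adjusted P values of 0.0253 and 0.0394 at log2 fold changes of 0.80 and 0.82. *Id1* overlapped between days, at 42.6, 23.6 and 37.4 CPM and then 37.3 and 40.6 CPM.

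The 7 genes of the fibrogenic program of the study (among them *Ccbe1*, *Wisp1*, *Col6a1*, *Il11*, *Itga5* and *Has2*) had 0 called members and a median log2 fold change of -0.06. *Has2*, a hyaluronan synthase, stood at 42.2, 49.6 and 41.3 CPM on day 7 and at 35.5 and 34.5 CPM on day 14 (adjusted P = 0.186, edgeR's quasi-likelihood test, Benjamini-Hochberg adjusted). *Cdkn1c*, the kinase inhibitor p57, overlapped at 2.29 to 3.83 CPM and 4.27 and 3.73 CPM. The study chose these genes on the libraries of the same series, so they are no independent set.

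The KLF and RUNX factors that the study stained were not called in either direction. It centers on KLF4 and RUNX1 and reports their organ preference by protein staining, whereas the values here are mRNA. *Klf4* stood at 247, 253 and 361 CPM on day 7 and at 285 and 335 CPM on day 14, and *Runx1* at 157, 171 and 184 CPM and then 141 and 163 CPM. *Runx3* had the largest change of the 6 KLF and RUNX genes (log2 fold change -1.47 ± 0.40 SE, adjusted P = 0.098, edgeR's quasi-likelihood test, Benjamini-Hochberg adjusted), at 36.7, 15.4 and 27.9 CPM and then 7.21 and 11.3 CPM. *Runx3* was called by DESeq2 (adjusted P = 0.00103) and, in edgeR's quasi-likelihood test, without mouse 2 of day 7 (-1.73, adjusted P = 0.0153). In the metastases that the study stained, RUNX3 signal lay in stromal cells and was not specific to the tumor. Which cells the *Runx3* mRNA came from was not tested. *Klf5*, *Klf6* and *Runx2* had log2 fold changes of 0.12, -0.06 and 0.00.

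Both *Gadd45a* and *Hmox1*, genes of stress responses, were called. *Gadd45a*, a growth arrest protein induced by DNA damage and other stress, stood at 107, 102 and 111 CPM on day 7 and at 217 and 232 CPM on day 14. *Hmox1*, heme oxygenase 1, stood at 43.8, 40.3 and 39.8 CPM and then at 84.1 and 99.7 CPM. Their log2 fold changes were 1.12 ± 0.09 and 1.20 ± 0.10 (SE), both with an adjusted P of 0.0163 (edgeR's quasi-likelihood test, Benjamini-Hochberg adjusted), and their libraries did not overlap. They were the single called members of their lists, 19 cytostatic and apoptotic regulators and 23 tested NRF2 and antioxidant genes. Of 27 p53 targets 0 were called.

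*Il10*, the anti-inflammatory cytokine interleukin 10, stood at 3.50, 2.51 and 2.12 CPM on day 7 and at 17.9 and 14.0 CPM on day 14 (log2 fold change 2.60 ± 0.24 SE, adjusted P = 0.0205, edgeR's quasi-likelihood test, Benjamini-Hochberg adjusted). *Ltf*, the iron-binding protein lactoferrin of neutrophil granules and secretions, stood at 17.2, 29.1 and 12.3 CPM and then at 83.9 and 97.0 CPM. *Ltf* is on the list of 10 neutrophil markers, which summed to 18.6 to 32.7 CPM on day 7 and to 92.3 and 113 CPM on day 14. Of the 6 markers tested 5 lay above day 7 with no overlap, as did 19.3% of all genes tested. Among them were *S100a8* and *S100a9*, which were not called. The 9 markers other than *Ltf* held at most 5.75 CPM in each of the 5 libraries. *Csf3r*, the G-CSF receptor, overlapped between days (1.06 to 1.30 CPM, then 0.630 and 1.46 CPM), and the part of neutrophils in the *Ltf* value was not tested. Of 40 interferon-stimulated genes and 18 genes of MHC class I presentation, 0 were called.

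*Hsd11b1*, which regenerates active glucocorticoids, had the lowest unadjusted P value of all genes, at 4.11, 3.41 and 3.30 CPM on day 7 and 15.9 and 16.8 CPM on day 14 (log2 fold change 2.23 ± 0.17 SE). *Cacna1h*, a T-type calcium channel subunit, rose from 4.77, 4.41 and 4.71 CPM to 13.6 and 20.2 CPM. *Ivl*, involucrin, and *Sprr1a*, both of the cornified envelope, were the 2 called of 13 tested basal-like and squamous genes, with log2 fold changes of 2.27 ± 0.34 and 1.50 ± 0.26 (SE). That list's median was -0.13, with 6 values positive and 7 negative.

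*Mmp19*, *Fbln1* and *Hist1h1c* were the called members of their lists. *Mmp19*, a matrix metalloproteinase, stood at 22.7, 36.3 and 35.9 CPM and then at 69.7 and 75.6 CPM, 1 of 27 tested matrix proteases and inhibitors. *Fbln1*, fibulin 1 of the basement membrane, stood at 16.3, 20.0 and 17.2 CPM and then at 29.6 and 41.4 CPM, 1 of 14 fibroblast markers. Of these 14 markers 8 had a positive and 6 a negative fold change (median 0.18 on the log2 scale), and their sums given above overlapped between days. *Hist1h1c*, a linker histone, stood at 74.1, 46.7 and 54.2 CPM and then at 142 and 136 CPM. *Tmem86a*, an enzyme of plasmalogen breakdown, rose with a log2 fold change of 1.06 ± 0.12 (SE).

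The genes that fell outside the cell cycle included *Tubb3*, a β-tubulin typical of neurons, at 83.2, 114 and 109 CPM on day 7 and 34.9 and 39.7 CPM on day 14. *Lrp8*, a receptor for apolipoprotein E and reelin, fell from 30.1, 38.5 and 33.9 CPM to 14.1 and 13.3 CPM. *Dagla*, a diacylglycerol lipase, fell from 38.4, 30.9 and 30.0 CPM to 14.6 and 16.0 CPM. *Dynap* fell from 14.4, 15.1 and 20.4 CPM to 4.55 and 4.97 CPM (log2 fold change -1.76 ± 0.21 SE).

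Among sterol genes no gene was called. All 24 genes of cholesterol synthesis and uptake had a negative fold change (median -0.43 on the log2 scale), 4 with an adjusted P under 0.05 at any fold. *Hmgcs1*, an early enzyme of the pathway, stood at 153, 134 and 118 CPM and then at 87.0 and 73.5 CPM. *Lss*, which closes the sterol rings, stood at 60.5, 63.1 and 59.5 CPM and then at 41.6 and 37.3 CPM, a log2 fold change of -0.59. Leaving out each library in turn moved the median between -0.57 and -0.28.

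Single members of further lists passed the test at any fold. *Ddit3* and *Ppp1r15a*, both induced by the integrated stress response, stood at 22.8, 28.4 and 26.9 CPM and then 43.1 and 45.7 CPM, and at 140, 137 and 142 CPM and then 205 and 211 CPM. The other 26 genes of the unfolded protein and integrated stress response did not pass, and 23 of the 28 had a negative value (median -0.37 on the log2 scale). *Ier3*, an immediate-early gene, stood at 283, 212 and 251 CPM and then at 463 and 476 CPM. *Hsph1* and *Dnaja1*, heat-shock chaperones on the same list of 30, had log2 fold changes of -0.73 and -0.52. These 2 chaperones fell while *Egr2* and *Ier3* rose, and the median of that list was 0.28.

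*Lcn2*, the iron-carrier protein lipocalin 2, stood at 34.5, 32.7 and 29.1 CPM and then at 53.5 and 70.4 CPM, and was the 1 of 30 NF-κB targets and chemokines to pass (median 0.33). *Axin2*, a target and inhibitor of Wnt signaling, stood at 23.1, 26.9 and 21.7 CPM and then at 38.1 and 47.2 CPM, 1 of 27 tested. *Snai2*, the EMT factor Slug, stood at 19.7, 12.5 and 16.9 CPM and then at 7.56 and 8.42 CPM, 1 of 30 mesenchymal and EMT genes (median -0.04). For these 3 genes the libraries did not overlap between days. Without mouse 2 of day 7 *Lcn2* and *Snai2* were called, and without mouse 1 of day 7 *Lcn2* and *Ier3* were. Of 30 epithelial identity genes and 26 collagens tested, 0 passed at any fold, with medians of 0.26 and -0.18.

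Of 42 ribosomal protein genes 41 had a positive log2 fold change, with a median of 0.60, and 16 had an adjusted P under 0.05 at any fold, with 0 called. Their sum was 24343, 27160 and 26232 CPM on day 7 and 39439 and 35249 CPM on day 14. The shift was not particular to these tumors. In primary tumors labelled Smad4ON 41 of the 42 were positive too, with a median of 0.35. In lung metastases labelled Smad4OFF 40 were positive, with a median of 0.29. Length moved with the day as well: the median log2 fold change was 0.16 in the 3568 genes with the shortest transcripts and -0.16 in the 3566 with the longest. For the genes tested under the label Smad4ON, the medians of the shortest and longest quartiles were 0.18 and -0.16. Ribosomal protein transcripts are short, and with an offset for transcript length, chosen after seeing the data, 2 of the 42 had an adjusted P under 0.05 and the median was 0.47. The same offset left the G2/M-phase median at -0.71 and the hypoxia median at 0.54, with 46 genes called higher and 20 lower.

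**Figure D3:**
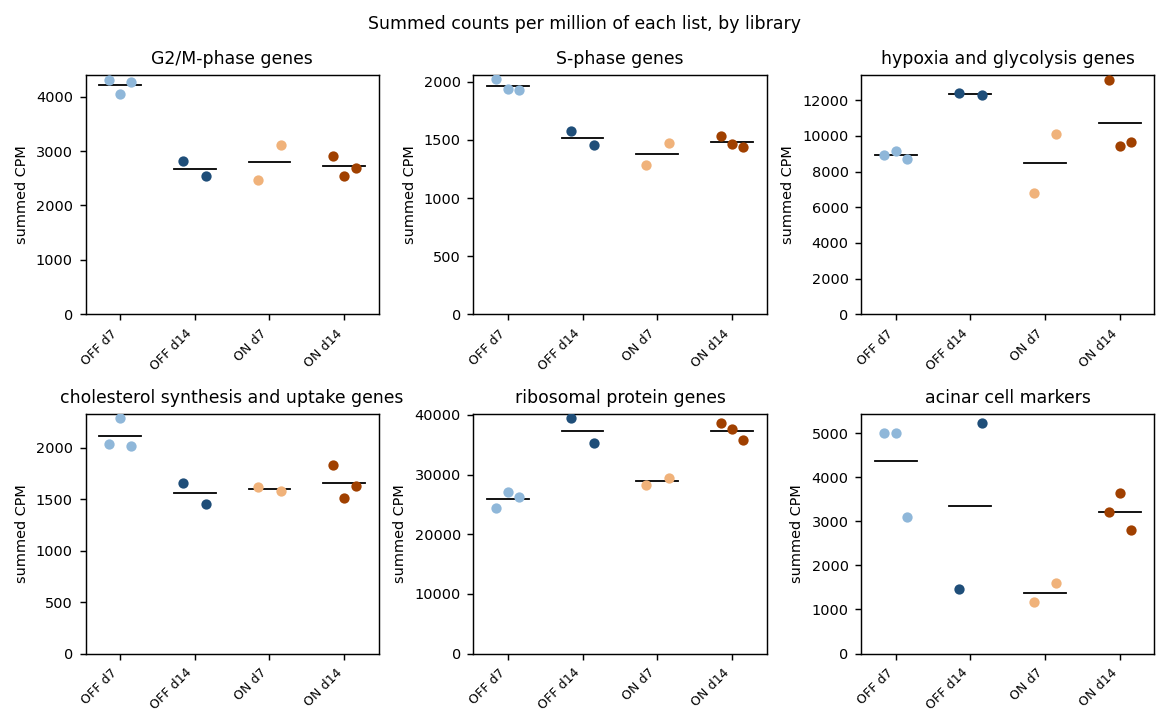
Summed CPM of 6 lists in each primary tumor library, with 1 point per library and a line at the group mean. For G2/M-phase genes the 3 libraries labelled Smad4OFF on day 7 (4041 to 4313 CPM) stand above the other 7 (2462 to 3119 CPM), and the acinar sums of the day 14 libraries labelled Smad4OFF lie at 1470 and 5234 CPM.

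The same days were compared in the primary tumors labelled Smad4ON, 2 libraries of day 7 and 3 of day 14. There 20 of 14404 genes were higher on day 14 (0.139%) and 7 lower (0.0486%), and 0 of these 27 genes were among the 118 called under the label Smad4OFF. With shares this small, unrelated sets of genes would also share hardly any member, so this count does not set the labels apart. The median log2 fold change of the G2/M-phase genes was -0.07, against -0.74 under the label Smad4OFF, with 35 of 52 values negative. That of the hypoxia and glycolysis genes was 0.29, with 30 of 34 positive. Day 7 under the label Smad4OFF was the group that stood apart for mitosis: *Kif11* stood at 23.8 and 30.8 CPM on day 7 and at 23.1, 24.0 and 26.9 CPM on day 14 under the label Smad4ON. *Adm* was higher on day 14 there too (6.62 and 7.46 CPM, then 19.0, 16.3 and 10.8 CPM), with an adjusted P of 0.0782 (edgeR's quasi-likelihood test, Benjamini-Hochberg adjusted).

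The difference between the labels was tested in its own right. The interaction of day and label over the 10 primary tumor libraries called 8 of 15093 genes with a higher day effect under Smad4OFF (0.053%) and 1 with a lower one (0.00663%). Of the G2/M-phase genes 0 had an adjusted P under 0.05 in this test (lowest 0.0598, for *Kif20b*), and of the hypoxia genes 0 (lowest 0.165, for *Vegfa*). Without either day 14 mouse labelled Smad4OFF the interaction called 0 genes, and without the other libraries 1 to 25 higher and 0 to 7 lower. The median interaction of the G2/M-phase genes was -0.62 and that of the hypoxia genes 0.20 on the log2 scale.

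*Il10* and *Tubb3* were among the 9 genes called in that test. *Il10* stood at 19.2 and 28.2 CPM on day 7 and at 12.2, 21.4 and 17.3 CPM on day 14 under the label Smad4ON, so the 3 low values of day 7 under Smad4OFF stood apart from the other 7 libraries. *Tubb3* stood at 9.97 and 12.9 CPM and then 18.6, 21.1 and 15.9 CPM, below every library labelled Smad4OFF.

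A further 6, named because they were called in this test, were *Sgk1*, *Egr2*, *Hc*, *Smg6*, *Cirbp* and *Apcdd1*. *Egr2*, an immediate-early transcription factor, stood at 45.4, 43.4 and 44.5 CPM and then 79.9 and 76.6 CPM under the label Smad4OFF. Under the label Smad4ON it stood at 90.4 and 74.7 CPM and then at 41.1, 49.5 and 35.3 CPM, so the direction was opposite (adjusted P under that label alone 0.0517). *Sgk1*, a glucocorticoid-induced kinase, stood at 90.0, 81.5 and 103 CPM and then 130 and 139 CPM, against 140 and 137 CPM and then 90.5, 92.5 and 88.8 CPM.

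**Figure D4:**
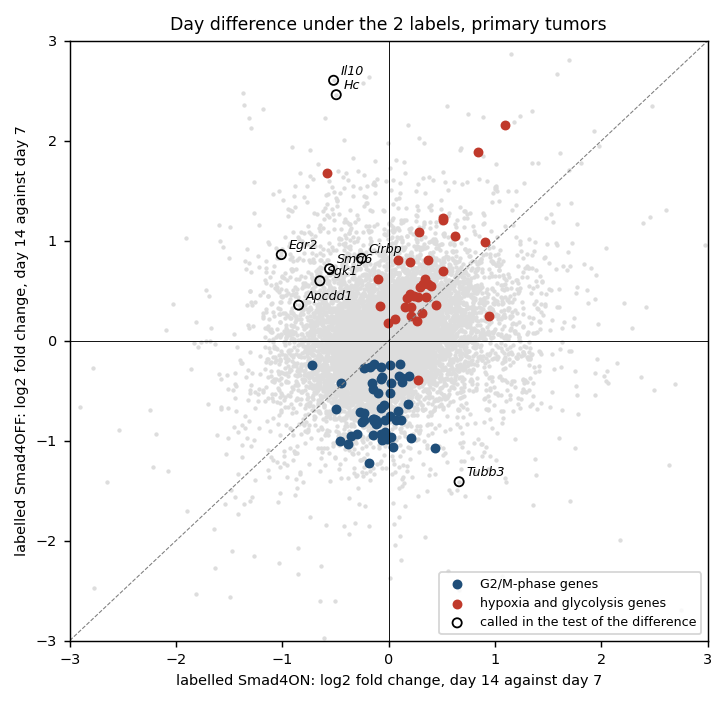
Log2 fold change between day 14 and day 7 under the label Smad4ON (horizontal axis) against that under Smad4OFF (vertical axis) for 13886 genes tested in both, 10 of them outside the plotted range of -3 to 3; the dashed line marks equal changes. G2/M-phase genes (blue) lie below 0 on the vertical axis with a median of -0.74 and around -0.07 on the horizontal, and *Il10*, *Tubb3* and the other 6 circled genes were called in the test of the difference.

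In the lung metastases labelled Smad4OFF, 4 libraries on each day, edgeR's quasi-likelihood test called 0 of 14368 genes (0%) between the days in either direction, with 528 at an unadjusted P under 0.05. DESeq2 called 1 higher and 0 lower. The median of the G2/M-phase genes there was 0.07 and that of the hypoxia genes 0.45 on the log2 scale. The difference of the day effect between primary tumors and lung metastases was called for 0 of 16121 genes (lowest adjusted P = 0.0561; 1113 at an unadjusted P under 0.05), whereas DESeq2 called 39 higher and 37 lower.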

How the data were processed

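Sorted mKate2+ cells were profiled by poly(A) RNA-seq (stranded, single-end). Per the labels, the deposited values are raw counts per gene (53465 genes, 35 libraries, 12 groups), made by the authors with FastQC 0.11.5, Trimmomatic 0.36, STAR 2.5.3a and featureCounts 1.6.3 on GRCm38. Groups came from the labels. Counts were filtered with filterByExpr (at least 10 counts, total of 15), scaled by TMM and fitted per comparison with edgeR 4.0.16's robust quasi-likelihood test, Benjamini-Hochberg adjusted, in R 4.3.3. Called genes changed over 2-fold with an adjusted P under 0.05. DESeq2 1.42.0, another normalization, other filters, thinning to equal depth, a replicate block, joint fits, leaving out each library and, chosen after seeing the data, an offset for transcript length were alternatives. The steps were tested on simulated data, scored at an adjusted P under 0.05 without the fold threshold. There edgeR recovered 65% of 2-fold and 91.8% of 4-fold changes over 14026 genes in the main comparison, with 7 false calls. Recovery under the rule for called genes was not measured. The simulated counts took their spread from the trend over expression level, with no outlier library and no length trend. These figures hold for such counts only.

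Members and lists were chosen with earlier results of these data known. Genes were named by rule: called genes of at least 10 CPM with no overlap between days (the 12 of lowest P and the 6 of largest fold in each direction), called list members, up to 3 abundant members of lists without calls, and genes on which the study turns. Other genes named, such as *Hk2*, *Vegfa*, *Mki67*, *Mcm4* and *Id2*, were chosen after their values were seen. Some named genes are not reported here. CPM values use total counts. Depth per library limits precision to counting error, as given in the report. Promoters came from RefSeq (GRCm38.p6) and were matched by symbol.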

Additional observations from a re-analysis of the deposited data

Results flagged for a closer look

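For 8 genes described here the day effect differed between the labels in primary tumors, tested as an interaction over 10 libraries by the quasi-likelihood test of edgeR (Benjamini-Hochberg adjusted). The difference, Smad4OFF minus Smad4ON on the log2 scale, was 3.10 for *Il10* (adjusted P = 0.0305), 2.93 for *Hc*, complement component 5 (0.0352), and 1.85 for *Egr2* (0.0216). It was 1.25 for *Smg6*, a nuclease of nonsense-mediated decay (0.0352), and 1.22 for *Sgk1* (0.0216). For *Apcdd1*, a Wnt inhibitor, it was 1.18, and for *Cirbp*, a cold-inducible RNA-binding protein, 1.06 (both 0.0352). *Tubb3* had the single negative difference, -2.09 (0.0307).

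*Smg6* stood at 114, 103 and 94.5 CPM on day 7 and 168 and 163 CPM on day 14 under the label Smad4OFF. Under Smad4ON it stood at 164 and 166 CPM and then at 102, 107 and 136 CPM. *Hc* stood at 0.423 to 0.614 CPM and then 3.33 and 2.11 CPM under Smad4OFF, and at 12.8 CPM in both day 7 libraries and 8.07, 8.68 and 11.3 CPM on day 14 under Smad4ON. *Cirbp* stood at 30.6, 25.8 and 23.3 CPM and then 45.5 and 45.4 CPM, against 57.9 and 55.4 CPM and then 47.3, 48.7 and 49.8 CPM. *Apcdd1* stood at 45.5, 38.5 and 42.0 CPM and then 50.0 and 54.3 CPM, against 74.6 and 78.6 CPM and then 36.6, 46.0 and 48.4 CPM. With a replicate block 0 of the 8 kept their call.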

How the results depend on the processing

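Between days under the label Smad4OFF (87 genes higher, 31 lower), DESeq2 called 160 and 69, no filter 281 and 143, no fold threshold 256 and 241, the joint fit of all 12 groups 0 and 0, and the length offset 46 and 20. Leaving out each library gave 0 to 219 higher and 0 to 102 lower. Under the label Smad4ON (20 and 7) DESeq2 called 169 and 76, no filter 211 and 106, no fold threshold 38 and 37, the joint fit 0 and 0, and thinning 12 lower; leaving out each library gave 0 to 54 higher, with 54 without mouse 1 of day 14 and 0 without mouse 2 or mouse 3 of day 14, and 0 to 13 lower. For the interaction of day and label (8 and 1) DESeq2 called 152 and 51, no filter 393 and 207, thinning 2 lower, and leaving out each library 0 to 25 higher and 0 to 7 lower. In the lungs DESeq2 called 1 higher gene. For primary tumors minus lungs (0 and 0) DESeq2 called 39 and 37, and DESeq2's size factors and the stricter filter each 1 and 2. The causes were not tested.

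Same-numbered libraries of both days had deviation correlations of -0.14 and -0.02. The deviations of the 2 day 14 libraries from their mean mirror each other, so these values cannot tell whether the replicate numbers pair the samples. With a replicate block 21 genes were higher and 11 lower under Smad4OFF, and 0 and 0 under Smad4ON and for the interaction. The block gave a log2 fold change of -0.0503 for Smad4 mRNA, as against 0.0166, and leaving out each library gave -0.0511 to 0.0945, with -0.0511 without mouse 3 of day 7 and -0.0386 without mouse 2 of day 14. Day 14 was the deeper day, and with libraries thinned to the smallest, 84 genes were higher and 30 lower. Of these, 78 and 24 were shared with the main calls.

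Beside *Smad4*, 92 named genes were recomputed. Of these 11 changed sign under an alternative, 0 of them called. Leaving out each library moved the log2 fold change of *Car12* between -0.61 and 0.0110, *Car9* between -0.0244 and 0.78, *Csf3r* between -0.85 and 0.32, *Il11* between -0.29 and 0.43 and *Itga5* between -0.13 and 0.0504. It moved *Klf5* between -0.025 and 0.31, *Klf6* between -0.21 and 0.0342, *Runx2* between -0.13 and 0.13, *Smad7* between -0.0506 and 0.15 and *Thy1* between -1.44 and 1.77. The replicate block gave 0.0122 for *Itga5*, 0.0609 for *Klf6* and 1.77 for *Thy1* (adjusted P = 0.0405, edgeR). The length offset gave 0.0306 for *Runx1*, and the joint fit of the 4 primary tumor groups -0.00803 for *Runx2*.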

Other observations

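Within day 7 the tumors labelled Smad4OFF differed from each other in single genes. With a pseudocount of 0.5 CPM, 22 genes with at least 20 CPM in the highest library ranged over 8-fold among the 3 day 7 libraries, and 0 did so between the 2 day 14 libraries. *Col1a2*, a collagen I chain, stood at 3761, 441 and 3959 CPM on day 7 and at 584 and 455 CPM on day 14, and was called in edgeR's quasi-likelihood test without mouse 2 of day 7 (log2 fold change -2.82) but not with it (-2.33, adjusted P = 0.262). *Thy1*, a surface protein of fibroblasts and neurons, stood at 23.7, 20.2 and 382 CPM and then at 65.8 and 78.5 CPM, with a log2 fold change of -0.94 that became 1.77 without mouse 3 of day 7. Both were chosen after their values were seen.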
